A study of Mus musculus with 3 samples.

Results

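The 9 genes described here encode the enzymes and receptors that turn arachidonic acid into prostaglandins and leukotrienes and sense them. They were chosen by symbol, and each of the 9 matched 1 row of the 27998 genes counted. They are *Ptgs1* and *Ptgs2* (cyclooxygenases 1 and 2), *Ptges* (an inducible prostaglandin E synthase), *Ptger4* (a prostaglandin E2 receptor), *Alox5* (5-lipoxygenase), *Alox5ap* (the protein that presents arachidonic acid to it), *Lta4h* (leukotriene A4 hydrolase, which makes leukotriene B4), *Ltc4s* (leukotriene C4 synthase, which makes the cysteinyl leukotrienes), and *Ltb4r1* (the high-affinity leukotriene B4 receptor). All cells came from 10-week-old male C57BL/6J mice on day 3 after burn/tenotomy, a dorsal burn with transection of the Achilles tendon that leads to heterotopic ossification (HO). No uninjured group was used here. Unsorted cells of the bone marrow, the blood, and the tendon injury site gave 1 library each, by 3′ counting of unique molecular identifiers (UMIs). How many mice were pooled for a library is not stated in the sources used here.

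With 1 library per site, no difference has a replicate check, no test was run, and no p-value is given. Levels are summed UMIs per 1000000 UMIs of a group of cells (CPM), with 95% intervals in parentheses that cover counting error only. Site and preparation cannot be told apart. The femurs were flushed to obtain marrow. Blood was drawn by cardiac puncture and reduced to mononucleated cells on a density gradient. Enzymes were used at 37°C to free the cells of the tendon injury site alone. After filtering, 1813 of 1855 marrow cells, 2146 of 2241 blood cells, and 4780 of 5629 tendon cells were used, with medians of 22836, 8316, and 11082 UMIs per deposited cell. The neutrophils described for blood are the ones left in that mononucleated fraction. Pairs of libraries shared 1 to 6 cell barcodes. Cells were clustered within each library without the pathway genes, clusters are cited by their number, and names such as neutrophil-like rest on marker genes. Among the tendon clusters, 15 led with tenogenic genes such as *Tnmd* and *Fmod* in only 44 cells, and 10, named keratinocyte-like, led with keratin genes.

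Prostaglandins are made where they act. Cyclooxygenase converts arachidonic acid released from membranes into a common precursor, and terminal synthases turn that precursor into prostaglandin E2, prostacyclin, thromboxane, or prostaglandin D2. *Ptgs1* is the constitutive isoform and *Ptgs2* the one induced by cytokines, microbes, and tissue damage. Leukotrienes start with 5-lipoxygenase and its activating protein in myeloid cells, and the unstable intermediate becomes leukotriene B4, a strong neutrophil attractant, or the cysteinyl leukotrienes, which act on vessels and smooth muscle.

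**Figure D1:**
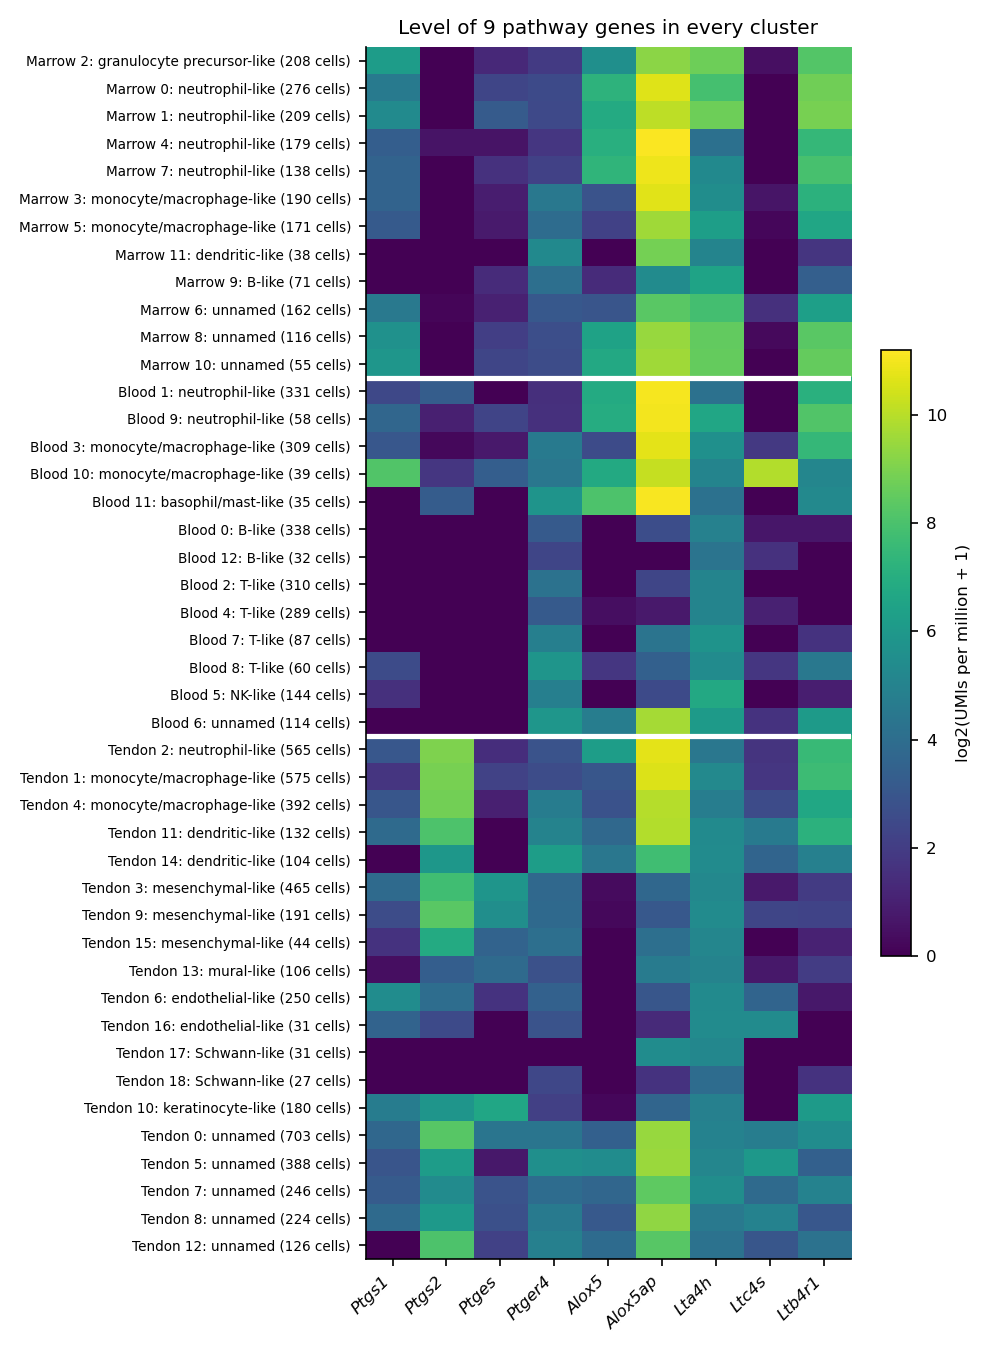
Levels of the 9 genes in all 44 clusters, as log2 of CPM with 1 added, with the number of cells in each cluster and white lines between the libraries. *Ptgs2* was at most 8.80 CPM in any marrow or blood cluster, *Alox5ap* was high in the neutrophil-like and monocyte/macrophage-like clusters of all libraries, and *Ltc4s* stood out in blood cluster 10.

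*Ptgs2* differed most between the libraries among the 9 genes. It had 2 UMIs among 48438810 in the marrow library and 31 UMIs among 21872592 in blood, against 16741 UMIs among 84266893 in the tendon injury site, found in 1984 of 4780 cells. In neutrophil-like cells its level was 0.0679 CPM in marrow (1 UMI), 6.69 CPM in blood (25 UMIs), and 517 CPM in the tendon injury site. Tendon neutrophil-like cells were thus 77.4-fold higher than those of blood (52.2 to 120). In monocyte/macrophage-like cells, marrow had no UMI, blood had 4 UMIs, and tendon had 465 CPM, 812-fold higher than blood (317 to 2980). Of the 25 blood neutrophil UMIs, 24 came from 8 of the 331 cells of cluster 1, the later of the 2 neutrophil-like blood clusters.

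The promoter of *Ptgs2* is shown because this gene carries the main difference between the sites. The window runs from 220 bases before to the first 30 bases of the gene in RefSeq on GRCm38.p6, at chr1:150099811-150100060 on the plus strand. Capitals mark matches, on either strand, to 4 of 6 motifs searched.

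Ptgs2: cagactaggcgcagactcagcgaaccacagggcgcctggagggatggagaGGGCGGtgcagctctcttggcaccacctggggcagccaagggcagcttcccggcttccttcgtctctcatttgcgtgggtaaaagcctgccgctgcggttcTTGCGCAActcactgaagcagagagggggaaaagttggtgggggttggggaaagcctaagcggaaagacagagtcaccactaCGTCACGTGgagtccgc

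The first match is the GC box GGGCGG at position -170 from the start of the gene. The second is the palindrome TTGCGCAA at -69, a C/EBP type of motif, which was added after the sequences had been seen. The last run joins the cyclic AMP response half-site CGTCA at 14 and the E-box CACGTG at 17, which overlap. Among 32851 RefSeq promoters in the same window, 33.8% held the GC box, 18.8% the half-site, 6.37% the E-box, and 0.161% the palindrome. Neither the TATA box TATAAA (11.7% of promoters) nor the ETS motif GAGGAA (23.6%), of the kind bound by PU.1, was found in these letters. The matches are descriptions of the sequence, and nothing here measured binding.

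Within the tendon injury site, *Ptgs2* was spread over immune and stromal clusters but not over all cell types. The order by CPM began with neutrophil-like cluster 2 at 517 (488 to 548), monocyte/macrophage-like cluster 1 at 475 (458 to 493), which led with *Ly6c2* and *Plac8*, and cluster 4 at 450 (430 to 471), which led with class II antigen presentation genes. These 3 levels lay close together, and the neutrophil-like cells were 1.11-fold higher than clusters 1 and 4 combined (1.04 to 1.19). Next came mesenchymal-like cluster 9 at 324 CPM (310 to 339) and cluster 0 at 317 CPM (305 to 329), led by *Arg1* and *Ppbp*, whose intervals overlapped. Clusters 0 and 5 had most markers from the monocyte/macrophage list, but their 10 leading genes held none of these. They held platelet genes (*Ppbp* and *Pf4*) in cluster 0 and a dendritic marker (*Clec10a*) in cluster 5 instead. Both are therefore cited by number alone and were left out of the class comparisons. The platelet genes *Gp9* and *Gp1bb* had no UMI in cluster 0, and *Itga2b* and *Treml1* had 0.237 and 0.473 CPM. Macrophage genes such as *C1qa* and *Mrc1* summed to 15688 CPM in cluster 0 and 19498 CPM in cluster 5, against 3535 and 13009 CPM in clusters 1 and 4. Unnamed cluster 12 had 269 CPM (212 to 337), at a median of 1597 UMIs per cell, and dendritic-like cluster 11, led by *Klrd1* and *Cd209a*, had 266 CPM (240 to 293). Mesenchymal-like cluster 3, led by *Crabp1* and *Cxcl5*, had 214 CPM (208 to 221).

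The other tendon clusters were lower than cluster 3. Tenogenic cluster 15 had 113 CPM (92.4 to 137). Cluster 5, led by the resident macrophage genes *Cd163*, *Folr2*, and *Lyve1*, had 71.9 CPM of *Ptgs2* (65.3 to 78.9), and cluster 1 was 6.61-fold higher than it (5.98 to 7.32). Keratinocyte-like cells had 56.8 CPM, endothelial-like cluster 6 had 14.9 CPM, and mural-like cells had 9.13 CPM. Neither Schwann-like cluster (31 and 27 cells) had a UMI, which allows up to 11.6 and 6.26 CPM. Mesenchymal-like cluster 3 was 14.4-fold higher than endothelial-like cluster 6 (12 to 17.5). By share of the library, cluster 3 held 24.8% of all *Ptgs2* UMIs in tendon, cluster 1 held 17.4%, and cluster 0 held 16.0%. The neutrophil-like cells held 6.95% from 11.8% of the cells. These shares depend on depth. Of the 84266893 tendon UMIs of all genes, the neutrophil-like cells held 2248196 and cluster 3 held 19371513.

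Shares of cells kept part of this order after each cell was thinned to 1000 UMIs, which removes the difference in depth. A *Ptgs2* UMI then remained in 26.6% of tendon neutrophil-like cells, 27.7% of cluster 1, 14% of mesenchymal-like cluster 3, and 0.402% of endothelial-like cluster 6. Dendritic-like cluster 11 and unnamed cluster 12, above cluster 3 by CPM, were below it by this share, at 8.33% and 9.20%. Unthinned, 234 of 565 tendon neutrophil-like cells held a *Ptgs2* UMI (41.4%), at a median of 3480 UMIs per cell, and the endothelial-like cells had a median of 22504 UMIs.

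Genes that respond to handling of cells also differed between the libraries. The 12 genes of this list, such as *Fos*, *Egr1*, *Atf3*, and *Ier3*, summed to 303 CPM in marrow, 1253 CPM in blood, and 5463 CPM in tendon neutrophil-like cells, and to 397, 1015, and 7076 CPM in monocyte/macrophage-like cells. Of the 12, 10 were at least 2-fold higher in tendon than in blood neutrophil-like cells and 9 in the monocyte/macrophage-like cells, none was lower by that much, and none was at 0 in blood. Over single clusters the sum ranged from 143 to 680 CPM in marrow, 259 to 1931 CPM in blood, and 3065 to 13599 CPM in tendon. Their part in the site difference of *Ptgs2* was not tested. Within tendon, the sum was 5948 CPM in endothelial-like cluster 6, 8291 CPM in cluster 5, and 5463 CPM in the neutrophil-like cells. Its highest value, 13599 CPM, was in Schwann-like cluster 17, and *Fos* alone gave 5717 CPM there. This cluster of 31 cells had no *Ptgs2* UMI, which allows up to 11.6 CPM. Single genes of the list had other orders. *Ier3* was 3003, 2507, and 2006 CPM in clusters 1, 4, and 0, and 1455 CPM in the neutrophil-like cells. It was 1525 CPM in cluster 5, 986 CPM in endothelial-like cluster 6, and 286 CPM in Schwann-like cluster 17. How the list relates to *Ptgs2* within tendon was not tested.

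**Figure D2:**
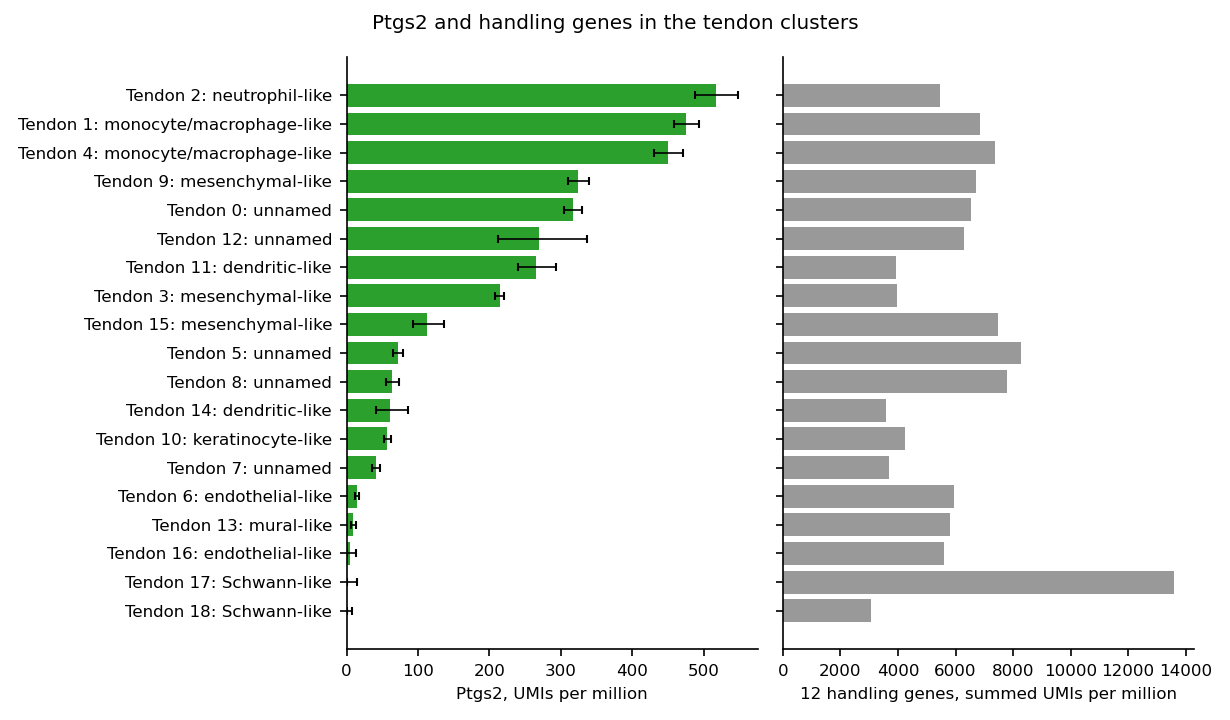
*Ptgs2* in the 19 tendon clusters (left, CPM with 95% counting intervals) and the summed level of 12 handling genes in the same clusters (right, CPM). *Ptgs2* goes from 517 CPM in neutrophil-like cells to 0 in the Schwann-like clusters, and the handling genes sum to at least 3065 CPM in every tendon cluster.

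*Ptgs1*, the constitutive isoform, had another distribution. In the marrow it was highest in the granulocyte precursor-like cluster 2, at 72.8 CPM (67.1 to 78.9), and lower in the neutrophil-like clusters, at 40.4 CPM in cluster 1, 23.0 CPM in cluster 0, 10.9 CPM in cluster 7, and 9.18 CPM in cluster 4. The precursor-like cells were 7.93-fold higher than cluster 4 (5.03 to 13.3). In the tendon injury site the highest level was in endothelial-like cluster 6, at 42.5 CPM (38.0 to 47.4), followed by keratinocyte-like cells at 25.2 CPM (21.8 to 29.0) and mesenchymal-like cluster 3 at 13.8 CPM (12.2 to 15.6). Endothelial-like cells were 3.07-fold higher in *Ptgs1* than mesenchymal-like cluster 3 (2.61 to 3.63), the reverse of their order in *Ptgs2*. Monocyte/macrophage-like clusters 1 and 4 of tendon had 2.29 and 6.88 CPM of *Ptgs1*.

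The *Ptgs1* promoter is shown beside that of *Ptgs2* because the isoforms did not share their high clusters. It lies at chr2:36230206-36230455 on the plus strand, and its only match in capitals is the ETS motif at -24.

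Ptgs1: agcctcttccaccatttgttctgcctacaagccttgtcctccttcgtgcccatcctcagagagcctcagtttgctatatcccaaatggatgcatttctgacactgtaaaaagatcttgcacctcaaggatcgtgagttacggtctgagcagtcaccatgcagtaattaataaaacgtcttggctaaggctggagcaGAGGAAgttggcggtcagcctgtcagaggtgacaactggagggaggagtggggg

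Neither the GC box, the half-site, the E-box, the palindrome, nor the TATA box was found in this window, and no match says only that these letters are not there.

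In blood, *Ptgs1* and *Ltc4s* sat together in 1 small cluster. Cluster 10 held 39 cells, 1.82% of those used, and its leading genes were *Retnla*, *Prg4*, *Cd5l*, *Alox15*, *Ltc4s*, and *C1qc*. It carried 83.1% of all blood *Ptgs1* UMIs (79.2% to 86.6%) and 98.1% of all blood *Ltc4s* UMIs (97.1% to 98.8%). Its levels were 283 CPM of *Ptgs1* (254 to 315) and 960 CPM of *Ltc4s* (906 to 1020), and all 39 cells held UMIs of both genes, at a median of 29619 UMIs per cell. Blood cluster 3, the monocyte/macrophage-like cluster led by *F13a1* and *Vcan*, had 7.28 CPM of *Ptgs1* and 2.60 CPM of *Ltc4s*. Cluster 10 was therefore 38.9-fold higher in *Ptgs1* (28.2 to 54.9) and 369-fold higher in *Ltc4s* (223 to 662). *Alox5* was 22.5-fold higher in it (14.9 to 35.1), at 109 CPM, and *Ltb4r1* was lower, at 34.5 against 176 CPM. This cluster was picked out after its values had been seen, *Ltc4s* is 1 of its leading genes, and its cells come from 1 library. Blood was drawn by cardiac puncture, and whether these cells circulated in blood was not tested.

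Platelets are a known site of *Ptgs1*, so the platelet genes are given beside it. Cluster 10 had 4189 CPM of *Pf4*, but *Ppbp*, *Gp9*, *Gp1bb*, *Itga2b*, and *Treml1* had no UMI in it. All 6 platelet genes were present in blood cluster 8, a T-like cluster led by *Foxp3*, where they summed to 1576 CPM and *Ptgs1* had 2 UMIs. When cells were named 1 by 1, only 5 blood cells were platelet-like, and they had 5 UMIs of *Ptgs1* in 3 cells (145 CPM, 47.1 to 339) and 11 UMIs of *Ltc4s*, all in 1 cell (319 CPM, 159 to 571). Of these 5 cells, 4 held *Alox5ap*. The same naming gave 182 platelet-like cells in tendon, 167 of them with *Alox5ap*. Whether cells named this way are platelets was not tested.

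**Figure D3:**
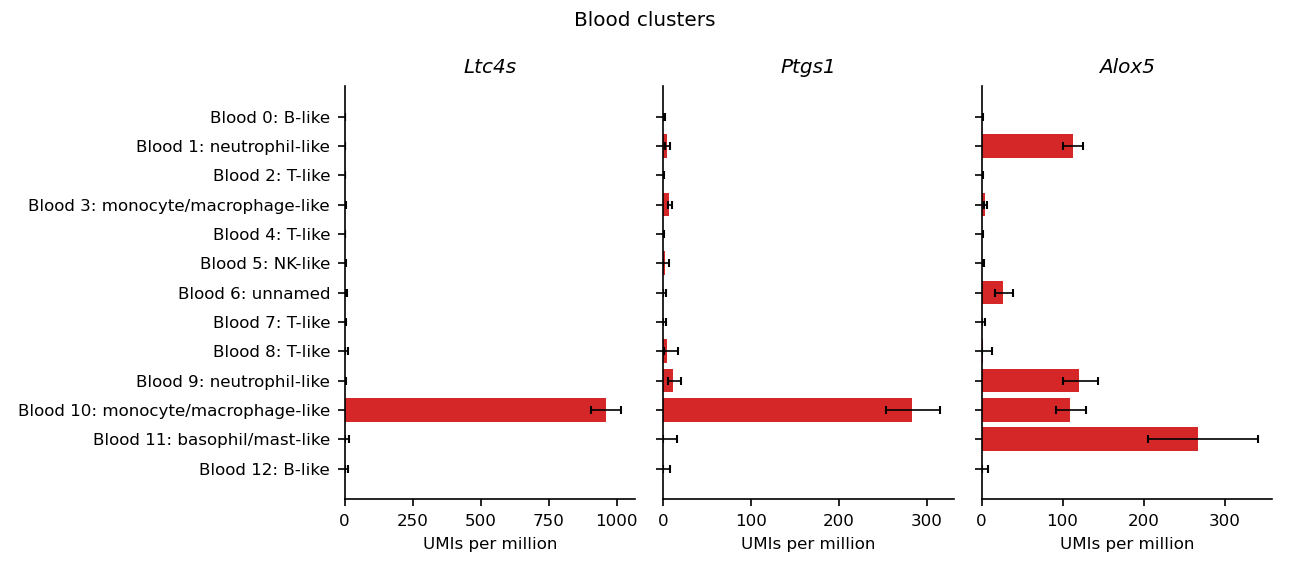
*Ltc4s*, *Ptgs1*, and *Alox5* in the 13 blood clusters (bars, CPM, with 95% counting intervals). Cluster 10 has 960 CPM of *Ltc4s* and 283 CPM of *Ptgs1*, and *Alox5* is spread over the neutrophil-like clusters, cluster 10, and the basophil/mast-like cluster 11.

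*Ptges*, which acts downstream of cyclooxygenase, was mostly a gene of epidermal and stromal cells. In the tendon injury site it had 99.1 CPM in keratinocyte-like cells (92.2 to 106), 55.8 CPM in mesenchymal-like cluster 3 (52.5 to 59.2), and 45.8 CPM in mesenchymal-like cluster 9 (40.5 to 51.7). Of all 2429 tendon UMIs of *Ptges*, mesenchymal-like cluster 3 held 44.5% and keratinocyte-like cells held 31.6%. The neutrophil-like cells, with the highest *Ptgs2*, had 4 UMIs of *Ptges* (1.78 CPM), and the monocyte/macrophage-like clusters 1 and 4 had 26 UMIs (2.52 CPM). Cluster 0 had 19.2 CPM, 5.33-fold higher than monocyte/macrophage-like cluster 1 (3.40 to 8.73). In mesenchymal-like cluster 3, 238 of 465 cells held UMIs of both *Ptgs2* and *Ptges*, and a *Ptges* UMI was found in 73.9% of the cells with *Ptgs2* and in 44.8% of those without. The median depth of these cells was 40700 UMIs, and deeper cells hold more UMIs of every gene, so the part of depth in this difference was not tested. Blood had 19 *Ptges* UMIs in all, 11 of them in cluster 10.

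*Ptger4*, a receptor through which prostaglandin E2 raises cyclic AMP in immune cells, was low and widely spread. Its highest tendon levels were 74.0 CPM in dendritic-like cluster 14, led by *Ccl5* and *Ccr7* (52.7 to 101), and 46.8 CPM in cluster 5 (41.5 to 52.5). The name of cluster 14 is uncertain. It rests on 3 dendritic markers, of which only 1 was among its 10 leading genes, and these also held *Ptprcap*, *Cd7*, and *Satb1*. In blood, unnamed cluster 6, led by *Cd300e* and *Ace*, had 57.8 CPM (43.5 to 75.2) and T-like cluster 8, led by *Foxp3*, had 55.5 CPM (35.2 to 83.3), and these intervals overlapped almost fully. T-like cluster 8 was 3.14-fold higher than T-like cluster 2, led by *Ly6c1* and *Cd4* (1.81 to 5.31). Tendon cluster 5 was 9.23-fold higher than monocyte/macrophage-like cluster 1 (6.36 to 13.8), the opposite of their order in *Ptgs2*. Cluster 1 was the lowest of these clusters, at 5.07 CPM. Clusters 4 and 0 had 25.4 and 19.6 CPM of *Ptger4*, nearer to cluster 5, with 450 and 317 CPM of *Ptgs2*. Neutrophil-like cells were low in all libraries, at 4.21 CPM in marrow, 1.87 CPM in blood, and 6.23 CPM in tendon. *Ttc33* overlaps *Ptger4* on the other strand and had 811, 480, and 1138 UMIs in the marrow, blood, and tendon libraries. The sources used here do not say whether counting used the strand, so UMIs of the overlap are uncertain.

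Along the order of neutrophil clusters in the marrow, the CPM of *Alox5ap* went up and that of *Lta4h* went down. *Alox5* and *Ltb4r1* did not keep 1 direction, and *Ltc4s* had no UMI in the neutrophil-like clusters. Marrow clusters were ordered by their summed late-stage markers, such as *Cxcr2* and *Mmp9*, from 595 CPM in precursor-like cluster 2 through 1949 in cluster 1, 14424 in cluster 0, and 43539 in cluster 7 to 56670 in cluster 4. Along this order *Alox5ap* was 612, 1089, 1628, 1956, and 2245 CPM. Each step lay outside the interval of the one before, and cluster 4 was 3.67-fold higher than cluster 2 (3.53 to 3.82). *Alox5* was 47.3 CPM in cluster 2, 116 CPM in cluster 1, 149 CPM in cluster 0, 160 CPM in cluster 7, and 133 CPM in cluster 4. It was 2.82-fold higher in cluster 4 than in cluster 2 (2.41 to 3.30), and the intervals of the 3 latest clusters overlapped. CPM is a share of all UMIs, so a higher CPM need not mean more UMIs per cell. The median of UMIs per cell fell from 39636.5 in cluster 2 to 11264 in cluster 4. As counts, *Alox5ap* had 5080 UMIs in the 208 cells of cluster 2 and 4645 in the 179 cells of cluster 4. *Alox5* had 393 and 276 UMIs in these cells. The part of depth in both rises was not tested.

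*Lta4h*, which turns the product of 5-lipoxygenase into leukotriene B4, went down this order, the opposite of *Alox5ap*. It was 428 CPM in cluster 2, 426 CPM in cluster 1, 236 CPM in cluster 0, 38.8 CPM in cluster 7, and 16.4 CPM in cluster 4. The precursor-like cells were 26.1-fold higher than cluster 4 (18.6 to 37.7), while clusters 2 and 1 overlapped. Unnamed clusters 8, led by histone genes, and 10, led by *Inhba* and *Cdc20*, are not part of the order, but their late-stage sums of 630 and 1253 CPM fell between those of clusters 2 and 1. Their *Lta4h* levels were 365 CPM (348 to 384) and 376 CPM (349 to 404), below both. Their *Alox5ap* levels, 708 and 788 CPM, lay between those of clusters 2 and 1. After thinning to 1000 UMIs, 27.9% of cluster 2 and 2.79% of cluster 4 held an *Lta4h* UMI. Blood repeated the order, with 96.9 CPM in neutrophil-like cluster 9, led by *Camp*, *Ltf*, and *Ngp*, and 17.2 CPM in cluster 1, a ratio of 5.63 (3.93 to 8.14), and tendon neutrophil-like cells had 20.9 CPM. *Lta4h* also had 233 CPM in unnamed marrow cluster 6, led by *Car2* and *Cd34*, and between 14.6 and 44.2 CPM in every tendon cluster, neutrophil-like or not.

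The receptor *Ltb4r1* had its highest level in the middle of the order. It was 297 CPM in cluster 2, 483 CPM in cluster 1, 436 CPM in cluster 0, 244 CPM in cluster 7, and 174 CPM in cluster 4. Blood neutrophil-like cells had 288 CPM in cluster 9 and 137 CPM in cluster 1, and tendon had 183 CPM (166 to 202). Some monocyte/macrophage-like clusters reached similar levels, with 176 CPM in blood cluster 3 and 205 CPM in tendon cluster 1. Others were lower, with 102 CPM in tendon cluster 4 and 34.5 CPM in blood cluster 10. Tendon clusters 0 and 5 had 42.3 and 9.71 CPM. Outside the myeloid clusters, tendon keratinocyte-like cells stood out with 67.2 CPM (61.5 to 73.2), 23.7-fold above mesenchymal-like cluster 3 (17.9 to 31.8).

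**Figure D4:**
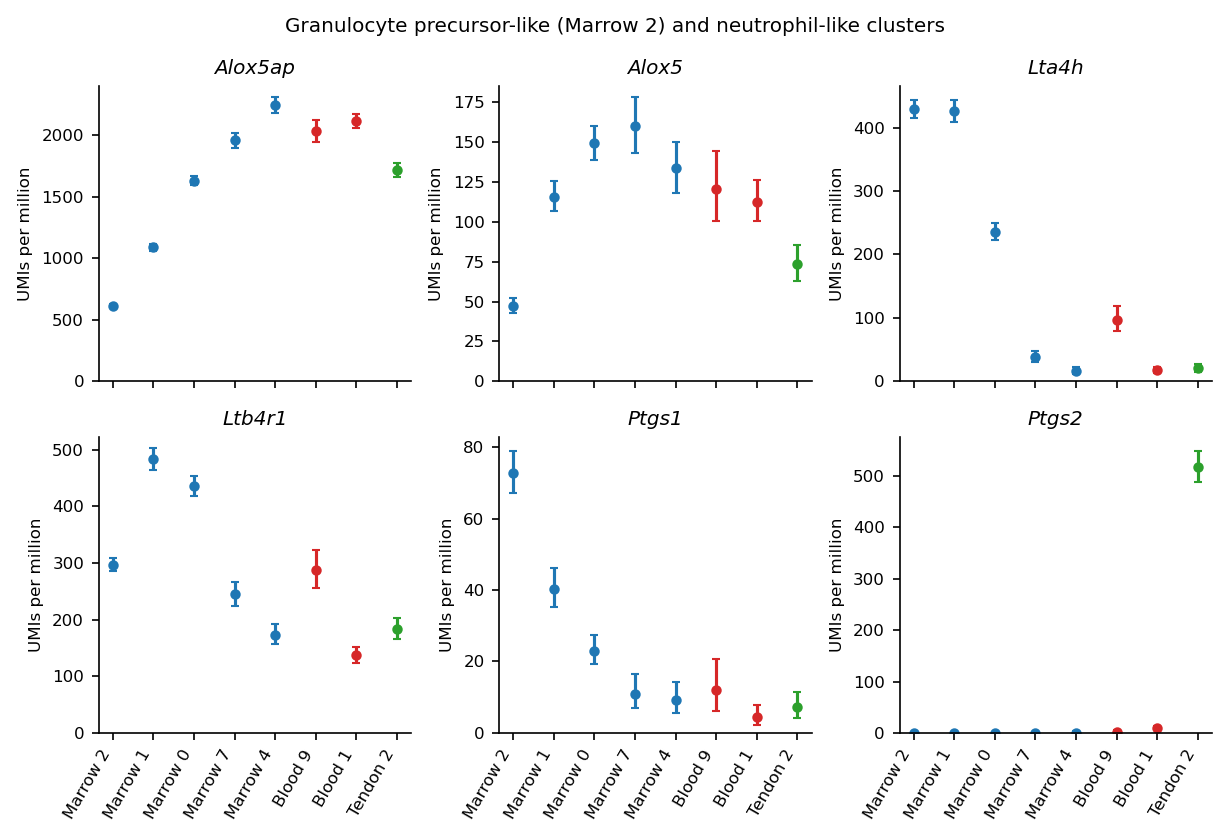
Levels of 6 genes (CPM, with 95% counting intervals) in the granulocyte precursor-like marrow cluster 2 and the neutrophil-like clusters of marrow (blue), blood (red), and tendon (green), with the marrow clusters ordered by late-stage markers. *Alox5ap* is higher and *Lta4h* and *Ptgs1* are lower in the later marrow clusters, and *Ptgs2* is high only in the tendon cluster.

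The promoters of *Alox5* and *Lta4h*, consecutive enzymes of leukotriene B4 synthesis, are shown because their marrow levels differed. Along the order, precursor-like cluster 2 had the lowest *Alox5*, at 47.3 CPM, and 428 CPM of *Lta4h*, near its highest. The *Alox5* window is chr6:116461149-116461398 on the minus strand, with the ETS motif at -136 and the GC box at -35 in capitals. The *Lta4h* window is chr10:93453176-93453425 on the plus strand, with the reverse form of the ETS motif, TTCCTC, at -126 in capitals.

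Alox5: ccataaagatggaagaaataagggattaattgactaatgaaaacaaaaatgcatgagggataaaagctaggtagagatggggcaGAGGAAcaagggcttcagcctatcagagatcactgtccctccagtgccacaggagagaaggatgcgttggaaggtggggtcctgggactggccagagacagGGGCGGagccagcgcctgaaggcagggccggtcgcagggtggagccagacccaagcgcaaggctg

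Lta4h: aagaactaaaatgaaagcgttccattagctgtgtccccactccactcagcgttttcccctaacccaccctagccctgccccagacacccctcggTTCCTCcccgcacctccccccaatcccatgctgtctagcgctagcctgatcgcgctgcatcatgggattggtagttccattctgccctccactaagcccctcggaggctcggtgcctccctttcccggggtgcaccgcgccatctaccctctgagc

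The ETS motif was present in 6 of the 8 members with a promoter entry, against 23.6% of the 32851 promoters. It was not found in *Ptgs2* or *Ptger4*. The GC box was found in *Ptgs2*, *Ptges*, *Ptger4*, *Alox5*, and *Ltb4r1*, against 33.8% of the promoters. Neither share was tested. No promoter entry was available for *Alox5ap*.

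*Alox5* was higher in neutrophil-like than in monocyte/macrophage-like cells of tendon. In the tendon injury site it was 73.4 CPM in neutrophil-like cells (62.6 to 85.5), against 6.58 CPM in the compared monocyte/macrophage-like clusters, 11.1-fold higher (8.36 to 15.0). *Alox5ap*, its partner, was high in both, at 1716 and 1334 CPM. Cluster 5 had 42.9 CPM of *Alox5* (37.9 to 48.4), 6.24-fold higher than monocyte/macrophage-like cluster 1 (4.50 to 8.87), and 37.1% of all tendon *Alox5* UMIs. The same cluster had the most *Ltc4s* in tendon, at 62.6 CPM (56.5 to 69.2), with 37.9% of the UMIs of that gene. It was 25.5-fold higher in *Ltc4s* than cluster 1 (15.3 to 46.1). In 66 of its 388 cells *Alox5* and *Ltc4s* were found together. An *Ltc4s* UMI was found in 47.5% of the cells with *Alox5* and in 34.5% of those without. The part of depth in this difference was not tested. Cluster 0 had 26.1 CPM of *Ltc4s*, unnamed cluster 8, led by interferon response genes, had 30.1 CPM, and the endothelial-like cluster 16 of 31 cells, led by *Ccl21a* and *Prox1*, had 41.7 CPM.

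In blood the highest *Alox5* level was in basophil/mast-like cluster 11, at 267 CPM (205 to 341) in 35 cells, with 2156 CPM of *Alox5ap*. *Ltc4s* had no UMI among the 236121 UMIs of that cluster, which allows up to 12.7 CPM. In marrow *Ltc4s* had 22 UMIs in all, 15 of them in unnamed cluster 6. The antisense gene *Gm26542* overlaps *Ltc4s* and had 28 UMIs in blood, and *Gm19719* overlaps *Alox5ap* and had 22. The members had 1193 and 21089 UMIs in all deposited blood cells. In all deposited marrow cells *Gm26542* had 30 UMIs against 25 of *Ltc4s*, and in those of tendon 38 against 1056. Since use of the strand in counting is not stated, the low *Ltc4s* count in marrow is uncertain.

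*Alox5ap* was nearly confined to myeloid clusters. In blood it was between 817 and 2156 CPM in the neutrophil-like, monocyte/macrophage-like, basophil/mast-like, and unnamed myeloid clusters, and at most 18.8 CPM in the T-like, B-like, and NK-like clusters. In tendon it was at least 215 CPM in every leukocyte cluster and 12.5 CPM in mesenchymal-like cluster 3, 11.8 CPM in keratinocyte-like cells, and 6.91 CPM in endothelial-like cluster 6. RNA released from other cells gives UMIs in cells that do not express a gene, and levels of this size were not told apart from it.

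The design implies 5 comparisons between the named classes, which ask how the pathway differed between sites within a kind of cell and between both kinds in tendon. A gene was compared when both groups together had at least 50 UMIs, and it was called when it differed by at least 2-fold. In neutrophil-like cells of tendon against blood, 1 of 5 members compared was higher and none was lower, against 15.2% and 13.3% of 5060 genes. The member was *Ptgs2*. With the 20 most abundant genes left out of the totals, 1 was higher and 1 lower, against 591 and 1004 of 5040 genes. *Alox5* was 73.4 against 115 CPM (log2 ratio -0.64, -0.91 to -0.38), *Alox5ap* 1716 against 2092 CPM (-0.29, -0.34 to -0.23), *Lta4h* 20.9 against 38.8 CPM (-0.89, -1.40 to -0.41), and *Ltb4r1* 183 against 178 CPM (0.05, -0.14 to 0.23). *Ptgs1*, *Ptges*, *Ptger4*, and *Ltc4s* fell short of 50 UMIs and were not compared.

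In neutrophil-like cells of blood against marrow, none of 7 members was higher and 5 were lower, against 12.1% and 12.2% of 7091 genes. *Lta4h* was 38.8 against 246 CPM (log2 ratio -2.66, -2.91 to -2.42), *Ptgs1* 6.42 against 25.6 CPM, *Ptges* 1.07 against 4.75 CPM, *Ptger4* 1.87 against 4.21 CPM, and *Ltb4r1* 178 against 390 CPM. The groups differ in stage, since 4 marrow clusters with late-stage sums from 1949 to 56670 CPM were set against mostly late blood cells. Precursor-like cluster 2 and unnamed clusters 8 and 10 of marrow were not among them. With the latest cluster of each library alone, none of 4 members was called, against 4.37% of 4416 genes higher and 2.47% lower. *Lta4h* was then 17.2 CPM in blood against 16.4 CPM in marrow (ratio 1.05, 0.660 to 1.68). *Alox5ap* was 2114 against 2245 CPM. Between tendon and blood, *Ptgs2* was still the 1 member of 5 called, and higher, against 16.1% of 4676 genes higher and 13.2% lower. This alternative, and the one for monocytes given next, was chosen after seeing the data.

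In monocyte/macrophage-like cells of tendon against blood, 1 of 8 members was higher and 3 were lower, against 8.94% and 16.5% of 9168 genes. *Ptgs2* was the higher one. The lower ones were *Ltc4s* at 3.49 against 170 CPM (log2 ratio -5.61, -6.13 to -5.13), *Ptgs1* at 4.16 against 55.4 CPM (-3.73, -4.22 to -3.28), and *Alox5* at 6.58 against 23.0 CPM (-1.81, -2.24 to -1.39). The tendon values cover clusters 1 and 4 only. Clusters 0 and 5, left out here, had 26.1 and 62.6 CPM of *Ltc4s*, 12.2 and 6.64 CPM of *Ptgs1*, and 9.82 and 42.9 CPM of *Alox5*. In blood against marrow the same 3 genes were the higher ones of 7 compared and none was lower, against 6.04% and 10.6% of 9506 genes. These comparisons share the blood cells, and those of cluster 10 are among them. Cluster 10 gave 1170 UMIs of *Ltc4s* and 345 of *Ptgs1*, and blood cluster 3 gave 15 and 42. The blood levels of these 2 genes are thus mostly those of cluster 10. With the cluster highest in classical monocyte markers alone in each library, which leaves cluster 10 out, *Alox5* was 6.87 CPM in tendon, 4.86 CPM in blood, and 6.19 CPM in marrow, and *Ltc4s* was 2.45, 2.60, and 0.563 CPM. *Ptgs2* was 475 CPM in tendon against 1 UMI in blood, and *Ptgs1* was 2.29, 7.28, and 11 CPM. Of 7 members compared between tendon and blood, *Ptgs2* was then higher and *Ptgs1* and *Ptger4* (5.07 against 22.5 CPM) were lower, against 8.32% and 15.9% of 8341 genes. Between blood and marrow none of 6 members passed 2-fold, against 1.78% of 8079 genes higher and 1.13% lower. *Ltc4s*, with 15 UMIs in blood and 2 in marrow, was not compared there.

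In the tendon injury site, neutrophil-like against monocyte/macrophage-like cells gave 1 member higher (*Alox5*) and 1 lower (*Ptger4*, 6.23 against 13.4 CPM) of 7. *Alox5ap*, *Ptgs2*, and *Ltb4r1* were between 1.11-fold and 1.29-fold higher in neutrophil-like cells than in clusters 1 and 4 combined, but against cluster 1 alone *Ltb4r1* was lower, at 183 against 205 CPM. Over 8147 genes, 10.9% were higher and 50% lower, and the median log2 ratio was -1.0, so neutrophil-like cells were lower in most genes. With the 20 most abundant genes left out of the totals, 2 members were higher and none was lower, against 1166 and 3505 of 8127 genes. Against the classical monocyte cluster alone, *Alox5* was the 1 of 5 members called, and higher, against 11.6% of 7104 genes higher and 46.8% lower. In the other 4 comparisons the median over all genes lay between -0.26 and 0.03.

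**Figure D5:**
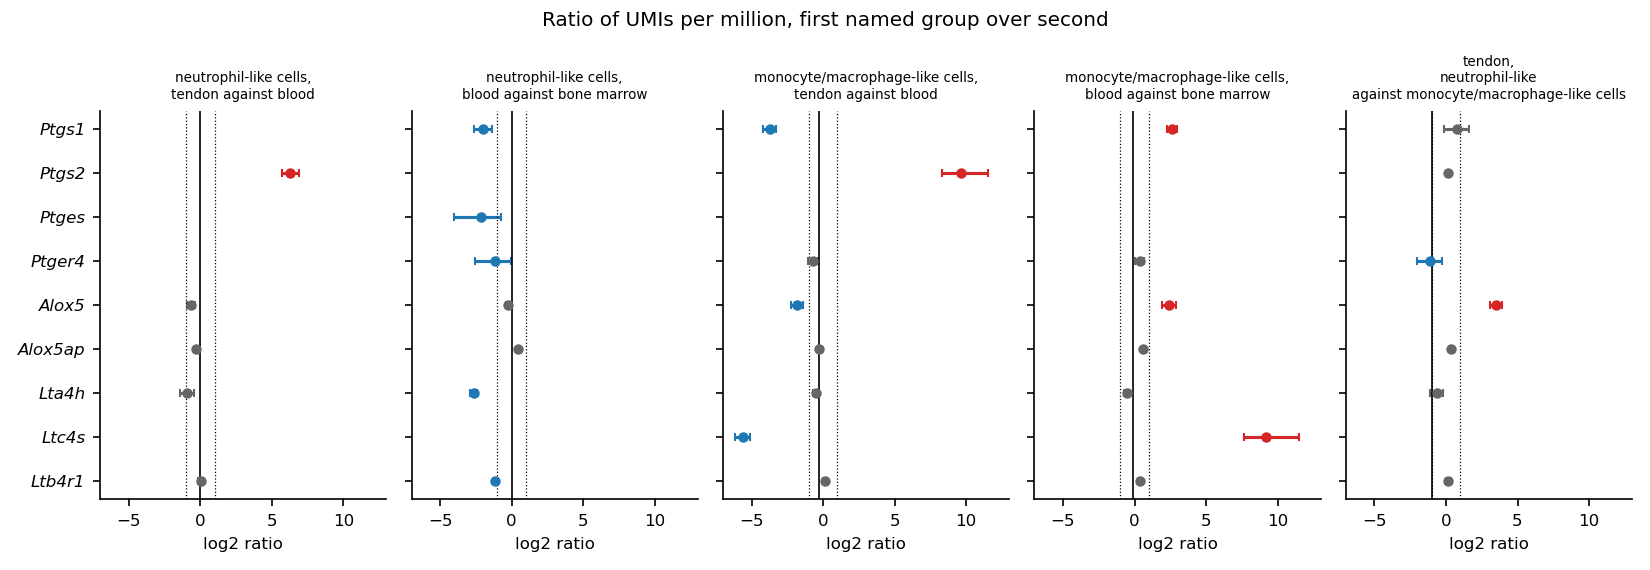
Log2 ratios of CPM with 95% counting intervals for the members compared (red at least 2-fold higher, blue at least 2-fold lower, grey neither) in 5 comparisons. The solid line is the median of all genes and dotted lines mark 2-fold. *Ptgs2* is the only red point in both comparisons of tendon with blood.

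The rest of the pathway was followed with a list of 40 further genes, all found in the files. In neutrophil-like cells of tendon against blood, 2 of 11 compared were higher and 3 lower, against 15.2% and 13.3% of all genes. In blood against marrow, 5 of 17 were higher and 7 lower, against 12.1% and 12.2%. In monocyte/macrophage-like cells of tendon against blood, 2 of 25 were higher and 5 lower, against 8.94% and 16.5%, and in blood against marrow 9 of 24 were higher and 2 lower, against 6.04% and 10.6%. In tendon, 6 of 24 were higher and 14 lower in neutrophil-like than in monocyte/macrophage-like cells, against 10.9% and 50%. Of the 40, 21 reached 50 CPM in a class of at least 50 cells.

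The terminal prostanoid synthases differed in where they were highest. *Ptgis*, prostacyclin synthase, was 660 CPM in tenogenic tendon cluster 15, 107 and 109 CPM in mesenchymal-like clusters 3 and 9, and 364 CPM in blood cluster 10, with no UMI in any marrow cluster. *Tbxas1*, thromboxane synthase, was 112 CPM in blood cluster 10, 86.3 CPM in tendon cluster 5, and 82.3 CPM in tendon cluster 0, against 14.1 CPM in tendon cluster 1. *Hpgds*, the hematopoietic prostaglandin D synthase, was 110 CPM in tendon cluster 5 and 111 CPM in cluster 8, and 1.64 CPM in cluster 1. *Ptges3*, a cochaperone with reported synthase activity, was found in all clusters and was lowest in the neutrophil-like ones, from 20.4 CPM in marrow cluster 7 to 36.9 CPM in tendon cluster 2.

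Genes that remove or carry prostaglandins had their own sites. *Hpgd*, the dehydrogenase that inactivates prostaglandin E2, was 568 CPM in blood cluster 6 and at most 47.2 CPM in any other cluster. *Slco2a1*, the prostaglandin transporter, was 260 CPM in endothelial-like cluster 6 and 230 CPM in endothelial-like cluster 16. *Ptgr1* and *Akr1b3*, reductases, and *Abcc1*, an exporter of leukotriene C4, were at most 92.5, 176, and 84.7 CPM. *Pla2g7*, which hydrolyses platelet-activating factor, was 706 CPM in tendon and 766 CPM in blood cluster 1 neutrophil-like cells, and 488 CPM in marrow cluster 4 against 1.32 CPM in precursor-like cluster 2.

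On the leukotriene side, *Cotl1*, a protein that binds 5-lipoxygenase, was 710 CPM in marrow cluster 4 and 313 CPM in cluster 2. *Cyp4f18*, which inactivates leukotriene B4, followed *Alox5ap* along the marrow order, with 5.54 CPM in cluster 2, 14 CPM in cluster 1, 65.1 CPM in cluster 0, 207 CPM in cluster 7, and 342 CPM in cluster 4. *Mgst2*, another enzyme able to make leukotriene C4, went down that order with 316, 296, 196, 140, and 107 CPM, and had 12.5 CPM in tendon neutrophil-like cells. *Mgst3*, of the same family, was 288 CPM in mural-like cells, 186 CPM in Schwann-like cluster 17, and 183 CPM in keratinocyte-like cells. The enzymes that trim cysteinyl leukotrienes were divided, with *Dpep2* at 243 CPM in blood cluster 6, *Dpep1* at 128 CPM in mesenchymal-like cluster 9, *Ggt5* at 103 CPM in blood neutrophil-like cluster 1, and *Ggt1* at 83.1 CPM in marrow cluster 4. The receptor *Cysltr1* reached 102 CPM in tendon cluster 5, *Fpr2*, a receptor of lipoxins and formyl peptides, 411 CPM in tendon neutrophil-like cells, and *Alox12*, the platelet lipoxygenase, 74.8 CPM in blood cluster 8, in 2 of its 60 cells.

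For each member the 2 most similar of 10803 genes were found by Pearson's r of log2 CPM, with 1 added, over the 36 clusters of at least 50 cells. The clusters share 3 libraries, and r is a description with no test. *Ptgs2* was most like *Maff* (r = 0.948) and *Cxcl2* (0.944), *Alox5ap* most like *Csf2ra* (0.971) and *Igsf6* (0.957), and *Ltc4s* most like *Dab2* (0.879) and *C1qa* (0.862). *Lta4h* was most like *Tmem216* (0.886) and *Mogat2* (0.863), *Alox5* most like *B430306N03Rik* (0.903) and *Pilrb2* (0.900), and *Ltb4r1* most like *Mcemp1* (0.898) and *Trem3* (0.892). *Ptgs1* with *Abhd5* (0.813) and *Lmo1* (0.788), *Ptges* with *Sema3c* (0.831) and *Fst* (0.815), and *Ptger4* with *Nfatc2* (0.842) and *Tpp2* (0.837) had lower values.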

How the data were processed

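The data are single-cell UMI counts from 3 sites on day 3 after burn/tenotomy, with 1 library per site. These raw counts, deposited without normalization, carry Cell Ranger 5.0.1 in their file headers, and the submitters' processing notes name mm10. The members and lists were chosen with earlier results of these data known.

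Cells with fewer than 200 genes or over 20% mitochondrial UMIs were removed, and the cells with the highest Scrublet scores (scanpy 1.11.5) were removed as doublets at 0.8% of cells per 1000 cells, which took 27 marrow, 38 blood, and 198 tendon cells. The automatic Scrublet threshold marked 11, 31, and 0 cells. Each library was clustered on its own in Seurat 5.3.0 (R 4.3.3) with 2000 variable features, from which the pathway genes were left out, 30 principal components, and a resolution of 0.8. Libraries were not integrated, because integration placed early marrow neutrophils in clusters named for other cell types. A cluster took the name of the class with the most markers among the 100 genes highest in it by fold. A minimum of 3 markers was required, and a tie left it unnamed. It entered comparisons only if no other class had more markers among its 10 leading genes. Names were rebuilt here and are not the authors' annotation.

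Summed UMIs were scaled to 1000000 UMIs of the group (CPM). Levels have exact Poisson 95% intervals, shares Clopper-Pearson 95% intervals, and ratios intervals from the exact binomial split of UMIs, all covering counting error only. Ratios were calculated for genes with at least 50 UMIs over both groups and called at 2-fold, and an upper limit for a count of 0 is 3 counts. For shares, each cell was thinned to 1000 UMIs, and shallower cells were left out. The genes named are the 9 members, the genes of a 40-gene pathway list that reached 50 CPM in a class of at least 50 cells, and the 2 genes most like each member among those with at least 500 UMIs. Gene positions came from GENCODE on GRCm38 and promoters from RefSeq, with an entry for 8 of 9 members. The ratio intervals were tested on simulated data, drawn as independent Poisson counts from the library totals. These have the same counting error that the intervals assume, so the simulation could not show the effect of spread between cells. The alternatives, 12 planned and 3 added after seeing the data, changed the filter, doublets, clustering, naming, variable features, weighting, scaling, UMI minimum, and thinning. Calculations ran in Python 3.11.15 (numpy 2.4.6, scipy 1.17.1, pandas 2.3.3), and plots in matplotlib 3.10.9.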

Additional observations from a re-analysis of the deposited data

Results flagged for a closer look

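*Ptgs1* differed between blood and bone marrow in opposite directions in the 2 classes. In neutrophil-like cells the log2 ratio of blood to marrow was -1.99 (-2.66 to -1.40), and in monocyte/macrophage-like cells it was 2.61 (2.28 to 2.96). The difference between these ratios was not tested, since each site has 1 library. The second value rests on the 39 cells of blood cluster 10, and with the classical monocyte cluster of each library alone it was -0.59.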

How the results depend on the processing

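Counts of members past 2-fold were recalculated under each alternative. For neutrophil-like cells of tendon against blood, 1 member became 2 with the stricter filter on cells, with the libraries integrated, without the 20 most abundant genes, and with the minimum of 20 UMIs. Over all genes, those higher and lower were then 783 and 660 of 5032, 915 and 568 of 5119, 591 and 1004 of 5040, and 1096 and 1103 of 6859. For tendon neutrophil-like against monocyte/macrophage-like cells, 2 became 1 with doublets kept, at resolution 0.5, and with the classical monocyte cluster alone. It became 5 with the libraries integrated, with cells named 1 by 1, and with tendon clusters 0 and 5 added to the monocyte/macrophage-like cells. Over all genes, those higher and lower were 841 and 3574 of 8323, 840 and 3556 of 7481, and 827 and 3323 of 7104 in the first 3 settings. They were 1026 and 5756 of 10267 with the libraries integrated, and 992 and 6072 of 10309 with cells named 1 by 1. In both of these settings 9 members were compared, 2 higher and 3 lower, against 7 compared in the main setting. With clusters 0 and 5 added, the share over all genes is not given here, so that count has no background beside it. For blood against marrow, 5 became 0 with the latest neutrophil cluster alone, and 3 became 0 with the classical monocyte cluster alone. In the first, *Ptgs1*, *Ptges*, and *Ptger4* had too few UMIs to be compared, and in the second *Ltc4s* had too few. Over all genes, 193 were higher and 109 lower of 4416 in the first, and 144 and 91 of 8079 in the second. All other counts of members stayed within 1.5 times the main count. Except for the stage and subset alternatives, which leave out named clusters, and the smaller minimum, which compares more genes, the cause was not tested.

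Signs turned in 5 called ratios (log2). With the latest neutrophil cluster alone, *Lta4h* of blood to marrow was 0.068. With the classical monocyte cluster alone, *Alox5* was 0.50 in tendon against blood and -0.35 in blood against marrow, *Ptgs1* was -0.59 for blood to marrow, and *Ptger4* was 0.30 for tendon neutrophil-like to monocyte-like cells. The log2 ratio of *Ptgs2* for tendon to blood ranged from 5.88 to 6.42 in neutrophil-like cells and from 8.86 to 11.42 in monocyte/macrophage-like cells over all settings. Leaving the 20 most abundant genes out of the totals moved the median log2 ratio of all genes from -0.04 to -0.29 and from 0.03 to -0.22 in the neutrophil comparisons, and from -1.0 to -0.70 within tendon. No paired analysis was possible because each site has 1 library, and for the same reason no replicate could be left out. A low count limits *Ptgs2* in marrow and blood and *Ltc4s* in marrow.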
